A study of Mus musculus with 4 samples.

Results

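Insulin-like growth factor (IGF) ligand, receptor, binding protein and adaptor transcripts were followed in the cerebellum of Dicer mutant mice. The spots were chosen by name: every non-control spot carrying the name of Igf1, Igf1r, Insr, Irs2 or Igfbp2 to Igfbp7 was read, whatever its value. The list of names was drawn up with earlier results of these data known. Of the 10 listed genes, 9 were found, out of 28632 gene names on the array. They were represented by 29 spots of 20 different probes. No spot carried the name Irs2, which is not analysed here.

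The mutants carried mGfap-Cre and 2 floxed Dicer alleles, and their control littermates carried mGfap-Cre and 1 floxed allele next to a wild-type one. Controls therefore shared the Cre transgene (line 73.12, driven by a mouse Gfap promoter) and had 1 floxed copy of the gene themselves. All animals were 30 days old and of mixed strain background. Total RNA of the cerebellum was compared in 4 independent littermate pairs, with both animals of a pair on 1 two-colour array. The mutant was labelled with Cy5 in pairs 1 and 3 and with Cy3 in pairs 2 and 4. Dicer cuts precursor hairpins into mature microRNAs, and the driver used is active in astroglia.

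IGF ligands are secreted hormones that act through receptor tyrosine kinases, and IGF binding proteins (IGFBPs) hold them in the extracellular space. Binding can store or block the ligand, or hand it on to a receptor when a protease cuts the binding protein. Activated receptors recruit insulin receptor substrates, which pass the signal to PI3K, Akt and the FoxO transcription factors. In the brain, IGF signalling is known for its part in the growth and survival of cerebellar neurons and in myelination. The choroid plexus, the leptomeninges, vessels and astroglia are known sources of several binding proteins.

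What each spot measured is set by its 60-base probe. The single Igfbp2 probe is shown first because it gave the largest difference of the group with the main settings. It ends in a stop triplet (capitals) in a reading frame with no other stop. It maps to the plus strand at chr1:72898677-72898736 of build mm9, as do all positions given from the array files below. The Igf1 probe is the one of 3 tested Igf1 probes that lies farthest upstream (chr10:87376418-87376477, plus strand). The probe shown for Igfbp4 (chr11:98909591-98909650, plus strand) was above background in only 5 of 8 channels, and the probe shown for Insr (chr8:3159473-3159532, minus strand) in none. All are printed 5′ to 3′ as deposited for the array.
Igfbp2 A_51_P423308: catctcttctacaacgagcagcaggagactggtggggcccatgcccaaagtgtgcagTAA
Igf1 A_52_P536434: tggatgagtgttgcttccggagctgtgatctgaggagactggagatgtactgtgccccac
Igfbp4 A_51_P398971: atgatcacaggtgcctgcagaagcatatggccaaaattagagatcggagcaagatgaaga
Insr A_52_P6490: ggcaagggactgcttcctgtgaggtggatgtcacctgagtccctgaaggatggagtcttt

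Values are mutant over control ratios on the log2 scale, as mean ± SD over the 4 pairs. Intervals are 95% intervals from limma, and adjusted p values are limma's after Benjamini-Hochberg adjustment over the 18025 genes tested. A gene was tested if a probe was well above background in all 4 mutant or all 4 control channels. Between 26398 and 28907 of 41174 probes were well above background in the mutant channels, against 26291 to 27718 in the control channels, and no spot was saturated. The number of arrays limits the precision. Dicer1 itself was at 0.04 ± 0.22 (A_51_P483059) and -0.06 ± 0.18 (A_51_P333060), with an adjusted p of 0.947. Where its probes lie relative to the floxed part was not established, so they do not check the deletion. Astroglia and Bergmann glia markers had 4 of 17 genes called higher, Aldh1l1 (1.5), Gfap (1.47), Fabp7 (1.06) and Slc14a1 (0.98), and 5 called lower, Dao (-1.39), Ndrg2 (-0.72), Slc1a2 (-0.57), S100b (-0.56) and Aqp4 (-0.54). In whole tissue, fewer cells of a type and less RNA per cell cannot be told apart.

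None of the 9 IGF genes passed an adjusted p of 0.05 in either direction, where 1.03% of all genes tested did so (106 or 0.588% higher, 80 or 0.444% lower). At the level of probes, 0 of the 15 tested passed, against 0.83% of all 25915 tested probes. At an unadjusted p under 0.05 there were 2 of the 9 genes, Igfbp2 and Igfbp4, both higher in mutants, beside 9.39% of all genes in either direction and 4.88% higher. The same genes gave the 2 probes with an unadjusted p under 0.05, beside 8.13% of all probes. Ratios of the 9 genes ran from -0.08 to 0.45 with a median of 0.03, beside a median of 0.00 over all genes. Most of the group lay close to 0, since 6 of 9 genes had a ratio smaller than 0.1 in size. The intervals, which are not adjusted for the number of genes, reached between 0.18 and 0.30 to either side of the mean. A call after adjustment over all genes needed a difference larger than its interval's reach. Igfbp2 (0.45) and Igfbp4 (0.32) had intervals above 0 and were not called. The median SD between pairs was 0.20 for these genes and 0.16 over all genes.

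**Figure D1:**
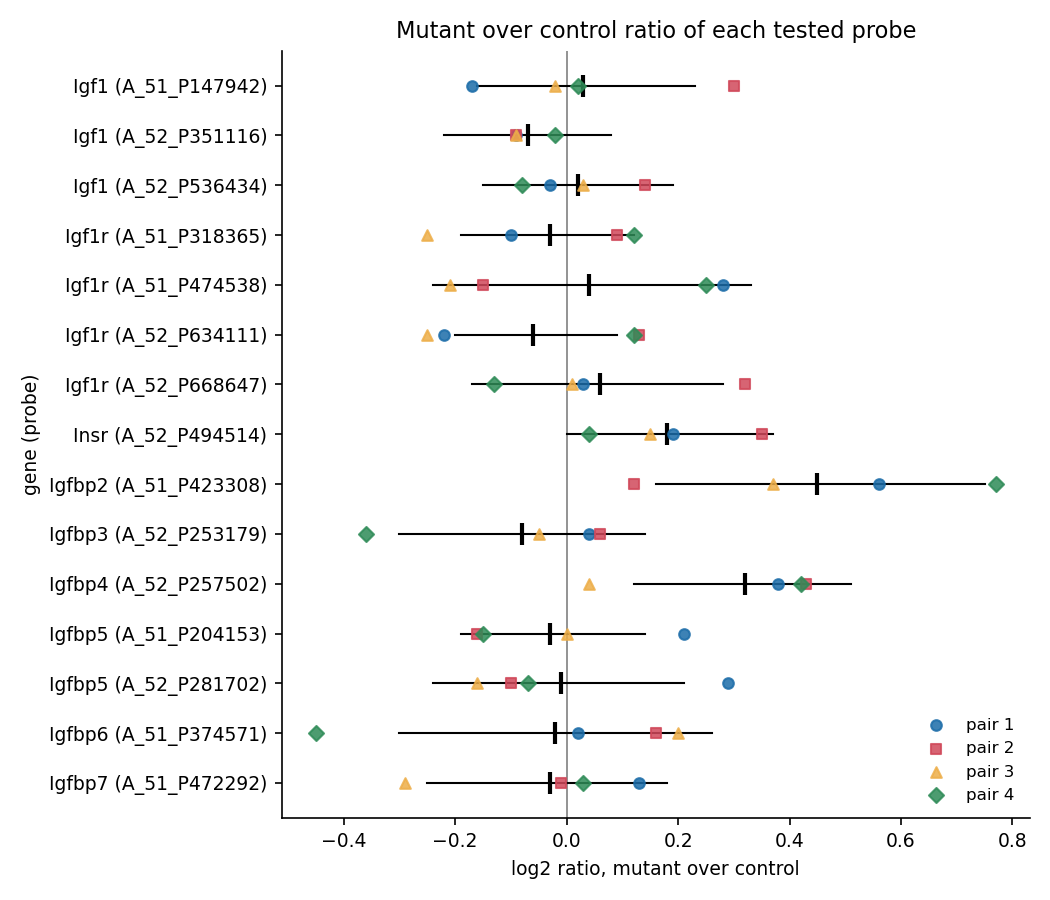
Each row is 1 tested probe of an IGF gene, the points are the log2 ratios of mutant over control in the 4 littermate pairs, the thick tick is the fitted mean and the line its 95% interval. The Igfbp2 and Igfbp4 intervals lie above 0 (0.16 to 0.75 and 0.12 to 0.51), and those of the other tested probes reach or span 0.

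Igf1, the IGF ligand of the group, is the growth hormone-dependent growth factor that also acts locally in the brain. Its most strongly hybridised probe A_51_P147942 (chr10:87393516-87393575) gave ratios of -0.17, 0.30, -0.02 and 0.02 in pairs 1 to 4. The mean was 0.03 ± 0.20 (interval -0.16 to 0.22, adjusted p = 0.947). Pair 1 was below 0 and pair 2 above it, and the levels in mutant and control channels overlapped.

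That probe was printed 10 times on each array. Its spots share 1 labelled pair of RNAs and 1 hybridisation, so their spread holds spot error only. The SD between its 10 spots was 0.07, 0.07, 0.04 and 0.08 in pairs 1 to 4. Between the pairs the SD was 0.20. All 10 spots were below 0 in pair 1 (-0.28 to -0.07) and above 0 in pair 2 (0.16 to 0.38). Mutant RNA was in Cy5 in pair 1 and in Cy3 in pair 2. With the mutant in Cy5 the mean was -0.09, and in Cy3 0.16. The parts of litter, labelling, array and dye in these ratios were not tested.

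Other Igf1 probes gave no larger difference. The probe at the 3′-most position, A_52_P351116 (chr10:87396567-87396626), was at -0.09, -0.09, -0.09 and -0.02, a mean of -0.07 ± 0.04 (adjusted p over probes = 0.888). The upstream probe printed above was at -0.03, 0.14, 0.03 and -0.08, a mean of 0.02 ± 0.10 (adjusted p over probes = 0.982). Pairs 1 and 2 were equal on the first of these probes, and on the second pair 2 was again the highest, at a smaller size than on A_51_P147942. One more probe, A_52_P306327 (chr10:87325382-87325441), which was designed on a different transcript (AK050118) and lies 71185 bases upstream of the 3′-most one, was well above background in 0 of 8 channels.

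Igf1r encodes the tyrosine kinase receptor for IGF ligands. Its 4 probes were well above background in all channels. The one standing for the gene, A_51_P474538 (chr7:75376998-75377057), had ratios of 0.28, -0.15, -0.21 and 0.25 in pairs 1 to 4, a mean of 0.04 ± 0.26 (interval -0.24 to 0.33, adjusted p = 0.953). Pairs 1 and 4 were above 0 and pairs 2 and 3 below it.

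The other Igf1r probes placed the pairs in a different order. A_51_P318365 (chr7:75371556-75371615) had -0.10, 0.09, -0.25 and 0.12, a mean of -0.03 ± 0.17. A_52_P634111 (chr7:75372500-75372559), less than 1 kb from it, had -0.22, 0.13, -0.25 and 0.12, a mean of -0.06 ± 0.21. These neighbouring probes had the same sign in each pair, and both had the opposite sign to A_51_P474538 in pairs 1 and 2. The most upstream probe, A_52_P668647 (chr7:75332515-75332574), 44483 bases before the 3′-most one, had 0.03, 0.32, 0.01 and -0.13, a mean of 0.06 ± 0.19. It was designed on a different transcript from the other Igf1r probes. No Igf1r probe passed the threshold, and the means of the 4 lay between -0.06 and 0.06.

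Insr, the insulin receptor, can pair with Igf1r in hybrid receptors. Its 3′ probe A_52_P494514 (chr8:3151667-3151726) was at 9.29, 9.74, 9.61 and 9.60 in the mutant channels of pairs 1 to 4 and at 9.10, 9.39, 9.46 and 9.56 in the control channels, in log2 units of intensity. The mutant was the higher littermate in every pair, by 0.19, 0.35, 0.15 and 0.04, but the groups overlapped because pair 1 was dimmer in both channels. The mean ratio was 0.18 ± 0.13 (1.14-fold, interval 0.00 to 0.37, adjusted p = 0.534). With an unadjusted p of 0.0512, Insr was not called. The second probe, 7806 bases upstream (sequence above), was well above background in 0 of 8 channels, so the Insr value rests on 1 probe. Leaving out 1 pair gave Insr ratios of 0.11 (without pair 2) to 0.26 (without pair 4), and none was called.

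Igfbp2 showed the largest ratio of the group with the main settings, though not in every alternative. The protein binds IGF ligands, and in brain it is known from astroglia and the choroid plexus. Its channel levels in mutants were 12.43, 12.12, 12.35 and 12.36 in pairs 1 to 4, and in controls 11.87, 11.99, 11.98 and 11.59 (log2 intensity). Every mutant was above every control, and Igfbp2 was the 1 gene of the 9 whose groups did not overlap, beside 3.99% of all genes in either direction. The ratios were 0.56, 0.12, 0.37 and 0.77, a mean of 0.45 ± 0.28 (1.37-fold, interval 1.12 to 1.68). The adjusted p was 0.252, so Igfbp2 was not called. A ratio of this size or larger in either direction was seen for 2.14% of all genes.

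Dye did not separate the Igfbp2 ratios, whose mean was 0.46 with the mutant in Cy5 and 0.45 with it in Cy3. Pair 2, with 0.12, was the lowest. Without pair 2 the fitted ratio was 0.62 with an adjusted p of 0.0239. That fit gave both dye orders equal weight, so pair 4 alone, the highest at 0.77, stood for the mutant in Cy3. Leaving out pair 2 was the only one of 17 alternative settings in which Igfbp2 passed the threshold. Over all 17 settings its ratio lay between 0.29 and 0.62 and its adjusted p between 0.0239 and 0.809.

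**Figure D2:**
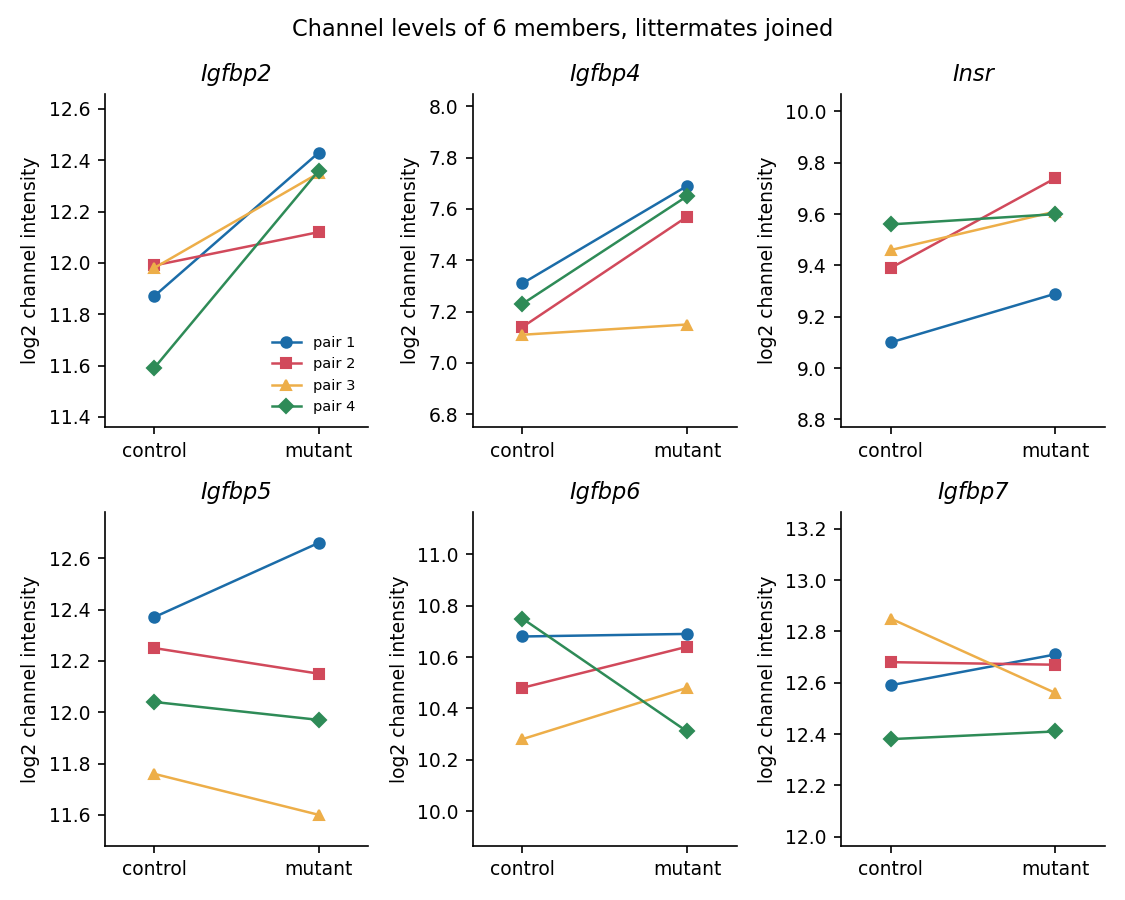
Normalized log2 intensities of 6 genes in the control and mutant channels, with a line joining the littermates of each of the 4 pairs; the vertical axes differ between panels, so levels cannot be compared between genes. For Igfbp2 the lowest mutant (12.12) is above the highest control (11.99), while the channels of the other genes overlap.

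Igfbp2 and Igfbp5 are neighbouring genes on chromosome 1, with 0 other genes between them in the RefSeq annotation of GRCm38, and their nearest probes are 6093 bases apart in mm9. Igfbp5, the most conserved of the binding proteins and one that also binds extracellular matrix, did not share the Igfbp2 values. The probe standing for Igfbp5, A_52_P281702 (chr1:72904829-72904888, minus strand), had ratios of 0.29, -0.10, -0.16 and -0.07, a mean of -0.01 ± 0.20 (interval -0.24 to 0.21, adjusted p = 0.984). Its second probe, A_51_P204153 (chr1:72907366-72907425), had 0.21, -0.16, 0.00 and -0.15, a mean of -0.03 ± 0.18. That probe was dim, at 6.51 to 6.80 in mutants and 6.51 to 6.71 in controls (log2 intensity). It was well above background in all 8 channels. On both probes pair 1 was the highest.

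The Igfbp2 ratio exceeded the Igfbp5 ratio in each pair, by 0.27, 0.22, 0.53 and 0.84, a mean difference of 0.47 ± 0.28. An exact two-sided sign-flip permutation test over the 4 pairs gave p = 0.125, which is the smallest value that 4 pairs allow. It was the 1 comparison of this kind that was made, and Igfbp2 had been singled out for its size.

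Igfbp4, a binding protein known mainly as an inhibitor of IGF action, had the second largest ratio of the group with the main settings. The probe A_52_P257502 (chr11:98913334-98913393) was at 7.69, 7.57, 7.15 and 7.65 in mutants and at 7.31, 7.14, 7.11 and 7.23 in controls. Pair 3 had the dimmest mutant, and its level lay within the controls, so the groups overlapped. Ratios were 0.38, 0.43, 0.04 and 0.42 in pairs 1 to 4, a mean of 0.32 ± 0.19 (1.25-fold, interval 1.09 to 1.42). The unadjusted p was 0.00767 and the adjusted p 0.213, which was not called.

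The upstream Igfbp4 probe printed above had ratios of 0.14, 0.18, -0.11 and 0.42, a mean of 0.16 ± 0.22. It was well above background in 3 mutant and 2 control channels and was not tested. On both probes pair 3 was the lowest and the other pairs were above 0. The tested probe gave 0.23 to 0.54 over the 17 alternatives, with an adjusted p of 0.177 to 0.901. Igfbp4 was above Igfbp2 with processed signals and with the deposited value table (0.54 against 0.45), and without pair 4 (0.32 against 0.29). The value of 0.54 lies above the main log2 interval (0.12 to 0.51). The main processing added an offset of 50 to intensities, and this Igfbp4 probe was dim. The part of the offset in its ratio was not tested.

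For the remaining binding proteins the mean ratios lay within 0.1 of 0. Igfbp3, the main IGF carrier of blood plasma, had ratios of 0.04, 0.06, -0.05 and -0.36 on A_52_P253179 (chr11:7106594-7106653, minus strand), a mean of -0.08 ± 0.19 (interval -0.30 to 0.14, adjusted p = 0.876). Pair 4 was the lowest, and without it the fitted ratio was 0.03. Its other probes, A_51_P228472 and A_52_P851352 (chr11:7111815-7111874), were well above background in 0 and 1 of 8 channels and were not tested.

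Igfbp6 is a binding protein that prefers IGF2 over IGF1. Its probe A_51_P374571 (chr15:101979763-101979823) had ratios of 0.02, 0.16, 0.20 and -0.45 in pairs 1 to 4, a mean of -0.02 ± 0.30 (interval -0.30 to 0.26, adjusted p = 0.982). Pair 4 was lower than the other pairs, and without it the fitted ratio was 0.13. Igfbp7, a low-affinity relative found in vessel walls, was at 0.13, -0.01, -0.29 and 0.03 on A_51_P472292 (chr5:77778355-77778414, minus strand). The mean was -0.03 ± 0.18 (interval -0.25 to 0.18, adjusted p = 0.949), with pair 3 the lowest.

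Igfbp2, Igfbp4 and Insr were above 0 in all 4 pairs, and no gene of the group was below 0 in all 4. Over all genes with 4 ratios, 7.76% were above 0 in every pair and 7.33% below. With 3 of 9 genes the group's count is small.

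The dissected tissue can hold other sources of IGF family transcripts, and their markers were read beside these values. Of 14 choroid plexus markers, 13 were tested, 0 were called and their median ratio was 0.13. Their medians were 0.13, -0.58, 0.40 and 0.49 in pairs 1 to 4. All 13 were below 0 in pair 2 (-0.94 to -0.18) and all 13 above it in pairs 3 (0.15 to 0.85) and 4 (0.27 to 0.70), with 10 of 13 above 0 in pair 1.

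The summed linear level of these markers ran from 51504 to 77876 in mutants and from 43097 to 75025 in controls, so the groups overlapped. Otx2, a transcription factor of choroid plexus epithelium, was at 0.08 ± 0.20 (adjusted p = 0.877), and Enpp2, a secreted enzyme, at 0.15 ± 0.46 (adjusted p = 0.877). Igfbp2 had its lowest ratio (0.12) in pair 2 and its highest (0.77) in pair 4, where the marker median was also lowest and highest. In pair 2 Igfbp2 stayed above 0 while all 13 markers were below 0, and in pair 1 it was at 0.56 with a marker median of 0.13. Igfbp4, at 0.43 in pair 2 and 0.04 in pair 3, had a different order. The part of choroid plexus RNA in the Igfbp2 value was not tested.

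**Figure D3:**
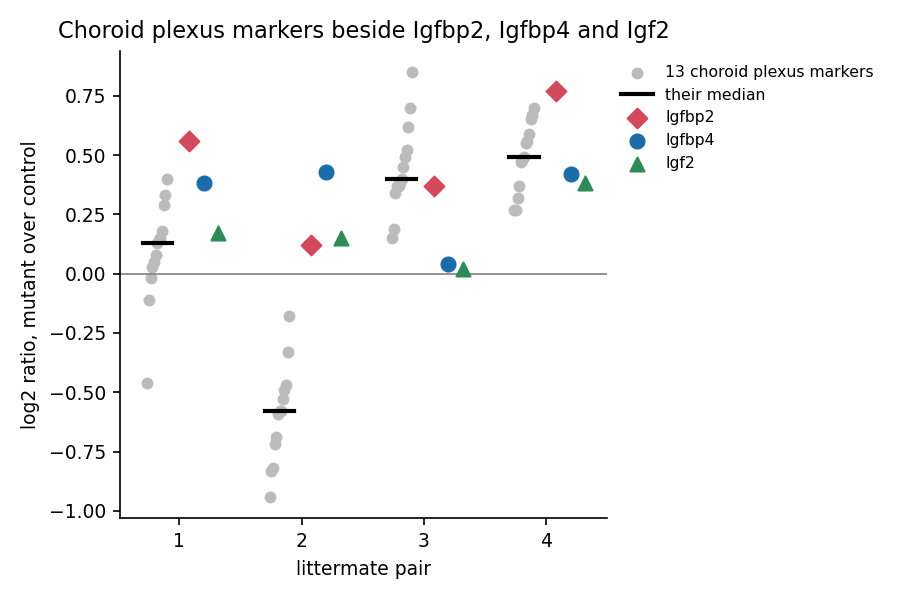
Log2 ratios of mutant over control in each littermate pair for 13 choroid plexus markers (grey points, with their median as a bar) and for Igfbp2, Igfbp4 and Igf2 (coloured). The markers are all below 0 in pair 2 and all above 0 in pairs 3 and 4, and Igfbp2 is above 0 in each pair.

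Leptomeningeal and fibroblast markers had 13 tested genes, 0 called, 3 with an unadjusted p under 0.05 and a median of 0.12. Lum and Dcn, small proteoglycans of collagen matrix, were at 0.56 ± 0.36 (adjusted p = 0.143) and 0.52 ± 0.30 (adjusted p = 0.221), each above 0 in all 4 pairs. The medians of the list by pair were 0.15, 0.22, 0.13 and 0.07, and its summed level ran from 25224 to 34828 in mutants and from 22827 to 28786 in controls. Its part in the Igfbp2 and Igfbp4 values was not tested.

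The vessel, astroglial and oligodendrocyte lists had medians below 0. All 15 tested endothelial markers had mean ratios below 0 without being called (median -0.08), beside Igfbp7 at -0.03. Among them were the transporter Abcb1a (-0.16) and the tight junction gene Cldn5 (-0.15). The pairs differed, with 8, 6, 3 and 5 of the 15 markers above 0 in pairs 1 to 4. Their medians by pair were 0.03, -0.01, -0.24 and -0.12. For pericytes and smooth muscle the median of 13 genes was -0.06, with 0 called, and Notch3 was at 0.29 ± 0.19 (adjusted p = 0.321) and Vtn at -0.19. The 17 astroglial markers, of which 9 were called as given above, had a median of -0.41. Of 14 oligodendrocyte markers 13 were below 0 and 0 were called (median -0.28), with the myelin genes Opalin at -0.40 and Cldn11 at -0.34.

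Neuronal and microglial lists had 0 genes called and medians between -0.02 and 0.02. The genes of smallest p were Itpr1 (0.14) and Car8 (-0.13) for Purkinje neurons, and Slc17a7 (-0.19) and Zic1 (0.18) for granule neurons. Gad1, an interneuron marker, was at -0.09, and Csf1r, a microglial one, at -0.13.

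Beyond the 9 genes, 99 other genes of the pathway were listed and 79 were tested. A single one was called, Adamts1, which was higher, and 0 were called lower, beside 1.03% of all genes. At an unadjusted p under 0.05 there were 16, beside 9.39% of all genes. Ratios were above 0 for 38 and below 0 for 41, and ran from -0.39 to 0.89.

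Among other ligands, receptors and carriers, 6 of 10 genes were tested and 0 called (median 0.15). Igf2, the second IGF ligand, made in adult brain mainly by choroid plexus and leptomeninges, had ratios of 0.17, 0.15, 0.02 and 0.38, a mean of 0.18 ± 0.15 (adjusted p = 0.512). Igfbp1, which in the RefSeq annotation of GRCm38 neighbours Igfbp3 with 0 genes between, was at 0.33 ± 0.31 (adjusted p = 0.526); it was at 0.15 without pair 2 and at 0.51 without pair 4, and was not called with any pair left out (adjusted p 0.0508 to 1). Pair 4 gave Igf2 its highest ratio, as it did Igfbp2, and both genes were above 0 in every pair.

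Of the proteases that release IGFs from binding proteins, and their inhibitors, 6 of 12 genes were tested, with a median of 0.24. Adamts1, a secreted metalloprotease of extracellular matrix, rose by 1.02, 0.79, 0.68 and 1.06 in pairs 1 to 4. Its mean was 0.89 ± 0.18 (1.85-fold, interval 0.67 to 1.11, adjusted p = 0.0207), more than the spread between pairs. The call was lost with median centring in place of loess (adjusted p = 0.062), with the mean over probes (0.62, adjusted p = 0.0664) and without pair 1 (0.80, adjusted p = 0.0846). Over all alternatives the direction of Adamts1 was kept.

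IGFBP-related cysteine-rich proteins had 8 of 10 genes tested, 0 called and a median of 0.14. The protease-like Htra3 was at 0.25 ± 0.12 (adjusted p = 0.285) and Ccn5 at -0.23 ± 0.09 (adjusted p = 0.303).

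Adaptors and direct receptor regulators had 18 of 19 genes tested, 0 called and a median of -0.02. Both genes of smallest p in this list were suppressors of cytokine signalling, which can also bind insulin and IGF receptors. Socs1 was at -0.39 ± 0.17 (adjusted p = 0.147), below 0 in all 4 pairs, and Socs3 at 0.40 ± 0.24 (adjusted p = 0.172), above 0 in all 4. Irs1, the closest relative of Irs2, was singled out after its values were seen, because it had the highest ratio of the list. It had ratios of 0.50, 0.82, 0.82 and 0.04, a mean of 0.54 ± 0.37 (adjusted p = 0.254), and pair 4 was the lowest.

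Inside the cell, the PI3K, Akt, mTOR and FoxO list had 28 of 30 genes tested, 0 called, a median of -0.02 and a narrow range of -0.14 to 0.24. Akt2, the kinase isoform best known from insulin action, had the top of that range at 0.24 ± 0.05 (adjusted p = 0.225), with 0.30, 0.25, 0.21 and 0.19 in pairs 1 to 4. Foxo6, a brain-enriched FoxO factor, was at 0.22 ± 0.37 (adjusted p = 0.276), above 0 in 2 pairs, both with the mutant in Cy5. Of 18 FoxO and insulin target genes, 15 were tested and 0 called (median 0.01). That list also holds Insr and Irs2 of the group, and Igfbp1, which is listed above among the carriers. Klf15 was at 0.34 ± 0.26 (adjusted p = 0.414) and Bcl2l11, a cell death gene, at 0.18 ± 0.26 (adjusted p = 0.416). The Bcl2l11 mean was 0.40 with the mutant in Cy5 and -0.03 with it in Cy3. The IGF mRNA-binding proteins Igf2bp1, Igf2bp2 and Igf2bp3 had no tested probe.

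**Figure D4:**
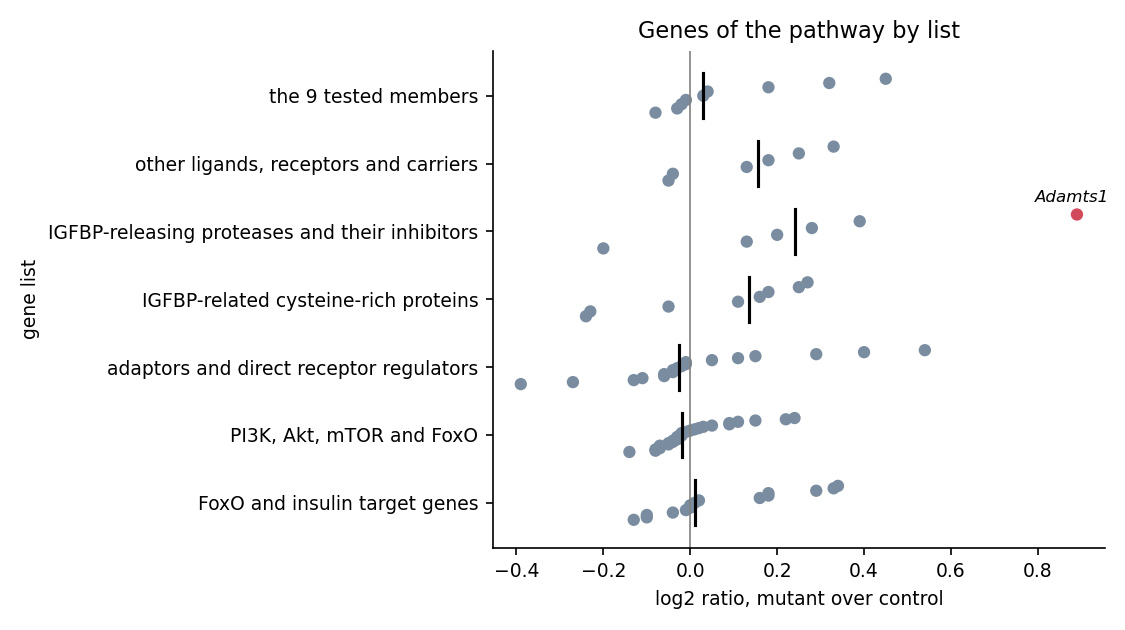
Each point is the log2 ratio of mutant over control of 1 tested gene, grouped by list, with the list median as a bar and the called gene in red. Adamts1 (0.89) is the only called gene, and the medians of the lists lie between -0.02 and 0.24.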

How the data were processed

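Each of 4 two-colour Agilent arrays compared 1 Dicer mutant with its control littermate (500 ng of total RNA a channel, per the labels' protocols). The deposited array files give, on a linear scale, intensities of spots and of their surroundings, read by Agilent Feature Extraction 10.5.1.1, and processed intensities that the software had background-subtracted and dye-normalized, per the file headers. A log10 ratio of both dyes (Cy5 over Cy3), made by the authors' software, is in the same files. The deposited value table holds the same log10 ratios turned to mutant over control (largest difference 4.84e-06, every column median 0), so its scale and direction are known. Probe positions are on mm9, per the file headers; exon and UTR annotation on that build was not used here.

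Mean spot intensities were corrected with normexp (offset 50) and normalized by loess within arrays, with no scaling between them (limma 3.58.1, R 4.3.3, data.table version 1.17.8, jsonlite 2.0.0, statmod 1.5.0). Control spots and 143 to 248 flagged spots an array were left out, and spots of 1 probe were averaged. Of 41174 probes, 24844 were named through their accession and 16330 by the array file. Tests took in probes well above background in all 4 mutant or all 4 control channels, with at least 3 arrays and both dye orders; the brightest tested probe stood for a gene. Channel levels are log2 intensities after loess and Aquantile. limma fitted genotype and dye over 18025 genes or 25915 probes (2 residual and 3.37 prior degrees of freedom), with Benjamini-Hochberg adjustment, and the threshold for a call was an adjusted p of 0.05.

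Pairs come from the labels and from sharing an array. With genotype and dye fitted out, channels of 1 array correlated at 0.424 to 0.731 across 25879 probes, and those on different arrays at 0.396 or less. These correlations include shared spot effects.

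The members and lists were chosen with earlier results of these data known. Named genes were all members, Dicer1, every called gene of a list or else its 2 genes of smallest p, and the 3 genes nearest in pattern to a called member, of which there was none. Some genes that the rule names are not reported here. Alternatives were other background corrections, signals, normalizations, filters, probe summaries and variance models, no dye term, no pairing, and each pair left out. With a pair left out, values are fitted genotype terms that weight both dye orders equally. They can therefore differ from the plain mean of the remaining pairs.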

Additional observations from a re-analysis of the deposited data

Results flagged for a closer look

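In 5 of 58 named genes and probes, 1 pair stood apart from the other 3 by Dixon's criterion, where the gap to the nearest pair is divided by the whole range and compared with its 95% critical value for 4 values. Chance gives about 1 such result in 20. The tested Igfbp4 probe had a Dixon ratio of 0.863, since pair 3 was at 0.04 and the other pairs were between 0.38 and 0.43. For the Igf1 probe A_52_P351116 it was 0.914, where pair 4 was at -0.02 and the other pairs at -0.09. Slc1a2, the astroglial glutamate transporter, had 0.879, with pair 4 at -0.41 and the others between -0.64 and -0.61. Notch3, a pericyte gene, had 0.841, with pair 3 at 0.01 and the others between 0.35 and 0.41. Lum had 0.830, with pair 1 at 1.09 and the others between 0.33 and 0.46. Igfbp4 and Notch3 both had their low value in pair 3.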

How the results depend on the processing

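With 4 pairs and 2 residual degrees of freedom, small differences could not be resolved, and dim probes of Igfbp3, Igfbp4 and Insr gave no second test. No IGF gene was called in the other settings except with a pair left out, where 0 to 1 genes and 0 to 1 probes were called (Igfbp2 without pair 2). Igfbp2, Igfbp4 and Insr stayed above 0 in every setting. Without the pairing (no replicate block) 161 genes were called in all and 0 of the group, with Igfbp2 at 0.46 (adjusted p = 0.165) and Igfbp4 at an adjusted p of 0.713. Treating spots with a population flag on the local background as missing, chosen after seeing the data, also gave 161 and 0.

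Counts that moved were these. Over all genes 186 became 82 with flags applied after the background fit and 52 to 336 with a pair left out (52 without pair 1, 267 without pair 2, 96 without pair 3 and 336 without pair 4). The pathway count of 1 became 0 with median centring, 0 with the mean over probes and 0 to 2 without a pair. The marker count of 9 became 5 with processed signals, 5 with the value table and 3 to 15 without a pair. The share of calls that were higher was 57%, and 78.8% without pair 1.

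Some signs turned. Igf1 was at -0.01 with the mean over probes; with flags after the fit Igfbp5 was at 0.01, Igfbp6 at 0.04 and the Igf1r probe A_51_P318365 at 0.01. The Igf1 probe A_52_P536434 was at 0.00 with median centring. Without a pair the ranges were -0.04 to 0.11 for Igf1, -0.08 to 0.17 for Igf1r, -0.18 to 0.03 for Igfbp3, -0.12 to 0.10 for Igfbp5, -0.17 to 0.13 for Igfbp6 and -0.14 to 0.07 for Igfbp7. They were -0.03 to 0.20 for Otx2 and -0.09 to 0.39 for Enpp2. For single probes they were -0.08 to 0.03 (Igfbp5 A_51_P204153), -0.07 to 0.00 (Igf1r A_51_P318365), -0.04 to 0.07 (Igf1 A_52_P536434) and -0.06 to 0.17 (Igf1r A_52_P668647). The cause was not tested.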
